A study of Homo sapiens with 8 samples.

Results

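HCT116 is an established line of human colorectal carcinoma cells. The response described here is the difference between an HCT116 culture labelled as hypoxia treated and an untreated HCT116 culture, each sequenced as 1 library of total RNA after removal of ribosomal RNA. A gene was taken in when it had at least 50 counts in either library, which held for 14925 of the 54261 genes in the table. The same series holds an untreated and a hypoxia library of DLD1 and of HCT8, further colorectal carcinoma (CRC) lines, and untreated libraries labelled NCM460 and HIEC6, lines of normal intestinal epithelium. All cells were grown in the same serum-containing medium and carry the passage label P5, there is 1 library per line and treatment, and neither the oxygen level nor the length of the hypoxia treatment is stated. With 1 library a side the HCT116 pair has no replicate, so its differences are descriptions without a test. DLD1 and HCT8 are held in cell line collections to share an origin, and are therefore not independent of each other. The check of cell identity rests on marker genes: the 7 epithelial markers summed to 4607 and 7214 CPM in the untreated and hypoxia HCT116 libraries, although VIL1 (villin of the brush border) had only 2 and 13 counts, and the 5 immune markers summed to 0.639 and 1.41 CPM.

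Cells sense low oxygen through prolyl hydroxylases, which in normal air mark the α subunits of the hypoxia-inducible factors (HIF) for destruction by the VHL complex. When oxygen is short, the α subunit persists, pairs with ARNT and binds a short DNA element around the letters ACGTG or GCGTG in target genes. Its targets move glucose into glycolysis, adjust pH, call in blood vessels and clear mitochondria, and in solid tumors of the colon they mark regions far from vessels.

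The 3 marker genes of the response differed in the HCT116 pair as follows. ADM, which encodes the vasodilating peptide adrenomedullin, stood at 18.0 CPM (counts relative to the library total after TMM scaling) in the untreated library and at 707 CPM under hypoxia, a 39.2-fold higher level. BNIP3, which encodes a mitophagy receptor of the outer mitochondrial membrane, went from 18.8 to 249 CPM, a 13.3-fold higher level. ALDOA, the glycolytic aldolase A, stood at 907 and 7579 CPM, an 8.35-fold higher level. The markers were therefore far apart between the HCT116 libraries, and each untreated value lay close to that of the library labelled NCM460, at 12.2, 18.3 and 869.9 CPM in the same order. DLD1 went from 11.2 to 46.7 CPM for ADM and from 989 to 2476 CPM for ALDOA, and HCT8 from 2.45 to 14.6 CPM and from 647 to 3178 CPM. BNIP3 was close to absent from both other lines, with 0 and 5 counts in the DLD1 pair and 0 and 1 counts in the HCT8 pair, so that among the CRC lines its reads came almost wholly from HCT116.

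The stretches before the start of 6 genes are printed to show where the core letters lie upstream of marker genes and of genes that moved in HCT116 and hardly in the other lines. Each is the 250 bases before the start of the gene from RefSeq (build GRCh38.p14), 5′ to 3′ on the strand of the gene, with capitals on ACGTG or GCGTG or their reverse complements CACGT and CACGC. The markers come first: ADM at chr11:10304823-10305072 (plus strand) and BNIP3 at chr10:131981924-131982173 (minus strand). DUSP1 at chr5:172771196-172771445 (minus strand) and FOSL2 at chr2:28392608-28392857 (plus strand) were higher, and ACP2 at chr11:47248815-47249064 (minus strand, the first of its 2 starts) and CHAF1A at chr19:4402390-4402639 (plus strand) were lower.
ADM: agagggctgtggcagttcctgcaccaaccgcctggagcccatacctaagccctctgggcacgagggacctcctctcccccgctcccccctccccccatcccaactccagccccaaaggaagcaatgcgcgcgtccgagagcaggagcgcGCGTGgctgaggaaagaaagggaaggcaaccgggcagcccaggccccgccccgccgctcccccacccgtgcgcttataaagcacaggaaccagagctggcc
BNIP3: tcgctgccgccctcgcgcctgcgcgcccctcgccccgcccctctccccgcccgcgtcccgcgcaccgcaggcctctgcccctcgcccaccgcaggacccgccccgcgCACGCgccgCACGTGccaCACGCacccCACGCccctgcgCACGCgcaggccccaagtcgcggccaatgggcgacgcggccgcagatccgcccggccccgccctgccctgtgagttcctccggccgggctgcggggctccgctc
DUSP1: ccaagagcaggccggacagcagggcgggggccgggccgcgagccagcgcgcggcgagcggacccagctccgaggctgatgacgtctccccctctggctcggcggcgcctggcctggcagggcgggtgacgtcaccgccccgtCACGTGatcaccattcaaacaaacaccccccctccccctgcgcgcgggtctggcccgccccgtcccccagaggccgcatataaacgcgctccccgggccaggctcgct
FOSL2: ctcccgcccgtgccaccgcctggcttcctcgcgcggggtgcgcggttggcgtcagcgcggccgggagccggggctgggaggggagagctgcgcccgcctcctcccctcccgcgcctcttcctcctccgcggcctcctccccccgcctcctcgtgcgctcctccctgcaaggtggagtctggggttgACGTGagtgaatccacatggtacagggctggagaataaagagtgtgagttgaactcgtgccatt
ACP2: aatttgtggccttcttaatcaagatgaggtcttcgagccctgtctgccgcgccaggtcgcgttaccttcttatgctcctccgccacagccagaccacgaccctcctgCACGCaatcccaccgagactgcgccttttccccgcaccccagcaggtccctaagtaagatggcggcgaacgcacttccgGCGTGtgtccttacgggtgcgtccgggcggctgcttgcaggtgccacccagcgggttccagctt
CHAF1A: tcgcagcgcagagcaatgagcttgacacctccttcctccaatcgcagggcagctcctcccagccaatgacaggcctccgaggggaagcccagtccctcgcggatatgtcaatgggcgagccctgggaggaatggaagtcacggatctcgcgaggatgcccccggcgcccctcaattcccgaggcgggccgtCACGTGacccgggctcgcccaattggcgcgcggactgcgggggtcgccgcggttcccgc
ADM held 1 match, at -101 from the start of the gene, and BNIP3 held 6, between -143 and -104. DUSP1 and CHAF1A each held the palindrome CACGTG, which counts as a match on both strands, FOSL2 held 1 match at -64, and ACP2 held 2, at -143 and -64. The 3 starts of ALDOA held 1, 2 and 1 matches. IL1RAP, FOSB, CD68 and DCLRE1A, chosen by the same rule as DUSP1 and ACP2, held none. A start of NR4A1 and a start of GEN1, chosen likewise, also held none. The letters are common: 47.4% of 27305 genes with a promoter sequence held at least 1 match, and so did 64.8% of the 10087 genes measured in the HCT116 pair, 61.2% of the 1095 at least 2-fold higher and 62.5% of the 1252 at least 2-fold lower ones with a sequence. Of the HIF targets listed below, 19 of 23 held a match (82.6%). A match is a run of letters and not a bound site.

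Total counts were 52242906 in the untreated and 55394729 in the hypoxia HCT116 library, within the range of 45519306 to 57374239 over all 8 libraries, and 3 counts, taken as the floor, correspond to 0.0523 to 0.0659 CPM. The hypoxia HCT116 library stood apart in its composition. Its 10 most abundant genes held 13.1% of the counts, against 8.86% in the untreated library and 6.03% to 8.45% in the others, and its TMM scaling factor was 0.771 against 0.988 to 1.13 in the other 5 CRC libraries. The 13 protein-coding genes of the mitochondrial genome held 4.36% of its counts against 2.71% untreated. In addition, none of the hypoxia libraries shares a sequencing run label with an untreated CRC library, so run and treatment cannot be told apart in any of the pairs. The library labelled NCM460, which was sequenced in part on the second run of the hypoxia HCT116 library, lay close to untreated HCT116 despite its label: the log2 differences between them had a standard deviation (SD) of 0.52 over genes, and 3.87% of 14715 genes were at least 2-fold higher and 3.93% at least 2-fold lower in it. Its values are given beside the HCT116 ones as a further look at run and culture, and not as a normal control.

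The number of genes that differed was largest in HCT116. In this pair 1809 genes (12.1% of 14925) were at least 2-fold higher under hypoxia and 2032 (13.6%) at least 2-fold lower, and 538 and 371 were past 4-fold. In the DLD1 pair 859 of 14653 genes (5.86%) were higher and 297 (2.03%) lower by the same measure. In the HCT8 pair 1399 of 15214 (9.2%) were higher and 973 (6.4%) lower. Only DLD1 and HCT8 leaned to higher values, while HCT116 had slightly more genes lower than higher, and its lean depended on the scaling: with total counts alone in place of TMM, the median gene moved from -0.02 to -0.38 on the log2 scale and 1138 genes were higher against 3482 lower. With upper-quartile factors the counts were 1924 and 1887 and with DESeq2 size factors 2000 and 1800, so that the lean turned to higher. The values below are relative to the TMM scaling, under which the median gene of each pair lay between -0.02 and 0.01.

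**Figure D1:**
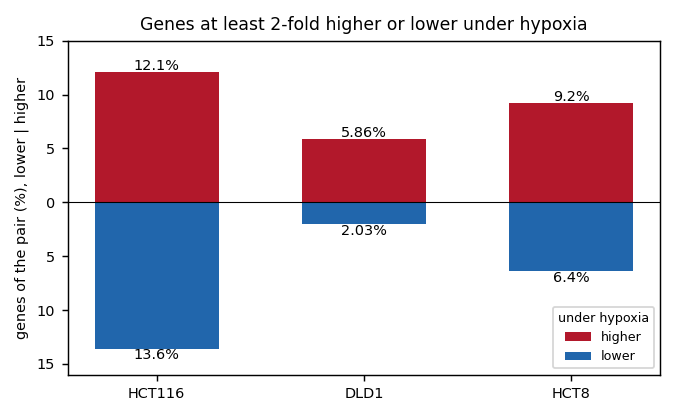
Share of the genes of each pair (%) that were at least 2-fold higher (above 0) or at least 2-fold lower (below 0) under hypoxia, in HCT116, DLD1 and HCT8, with 1 library a side. The bars reach 12.1% and 13.6% in HCT116, 5.86% and 2.03% in DLD1, and 9.2% and 6.4% in HCT8.

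The spread was wider in HCT116 as well. Over the 12868 genes measured in all 3 pairs, the log2 difference had an SD of 0.95 in HCT116, 0.51 in DLD1 and 0.69 in HCT8. The HCT116 difference was the highest of the 3 for 4690 of these genes (36.4%) and the lowest for 5422 (42.1%). The differences also followed abundance in HCT116, with a median of -0.25 in the quintile of these genes with the lowest mean CPM and 0.24 in the quintile with the highest, whereas the medians of DLD1 and HCT8 stayed between -0.09 and 0.06 in every quintile. Removing this trend from each library gave 2010 genes higher and 1726 lower.

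Most genes that moved in HCT116 had not moved as far elsewhere. Of the 1190 higher genes measured in all 3 pairs, 169 were at least 2-fold higher in both other lines, 190 in HCT8 alone, 79 in DLD1 alone and 752 in neither. Of the 1739 lower genes, 44 were at least 2-fold lower in both, 319 in HCT8 alone, 30 in DLD1 alone and 1346 in neither. Over all genes of their own pairs, 5.86% in DLD1 and 9.2% in HCT8 were at least 2-fold higher, and 2.03% and 6.4% lower. Each other line thus moved the same way more often among these genes than among all genes. A stricter rule, a log2 difference of at least 1 in HCT116 and under 0.5 in size in both other lines, kept 348 genes higher (2.7% of 12868) and 605 lower (4.7%). The lower ones lay mostly among scarce transcripts, with 218 in the lowest quintile of abundance and 21 in the highest, and the higher ones mostly among abundant transcripts, with 54 and 132.

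Whether a response differed between HCT116 and the other lines was tested with edgeR's quasi-likelihood test of an interaction between line and hypoxia over the 6 CRC libraries. This compares the HCT116 response with the mean of the DLD1 and HCT8 responses. Its only measure of error is the gap between those, with 1 residual degree of freedom, pooled over genes. The test assumes that the HCT116 response varies as those do, which 1 HCT116 pair cannot show. The standard errors (SE) and p-values of this test therefore do not measure the spread of the HCT116 response. After Benjamini-Hochberg adjustment 196 of 21045 genes passed 0.05, 107 with a higher response in HCT116 (0.508%) and 89 with a lower one (0.423%), and 3225 passed it before adjustment. Of the genes of the HCT116 pair, 102 were called higher and 85 lower, of 14894 tested. Among these, 76 of the 102 and 67 of the 85 were within 2-fold in both other lines. That was common among all genes: of the 12868 measured in every pair, 668 were past 2-fold in DLD1 and 1467 in HCT8. The counts of 76 and 67 therefore do not set the called genes apart from the rest. These calls need the pairing of libraries by line: without it edgeR called 0 genes (480 with an unadjusted p-value under 0.05). When any library of DLD1 or HCT8 was left out, which leaves no pairing to fit, edgeR again called 0 (153 to 392 unadjusted). On all 6 paired libraries limma-trend called 0 (2772 unadjusted) and DESeq2 called 493 (2104 unadjusted).

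**Figure D2:**
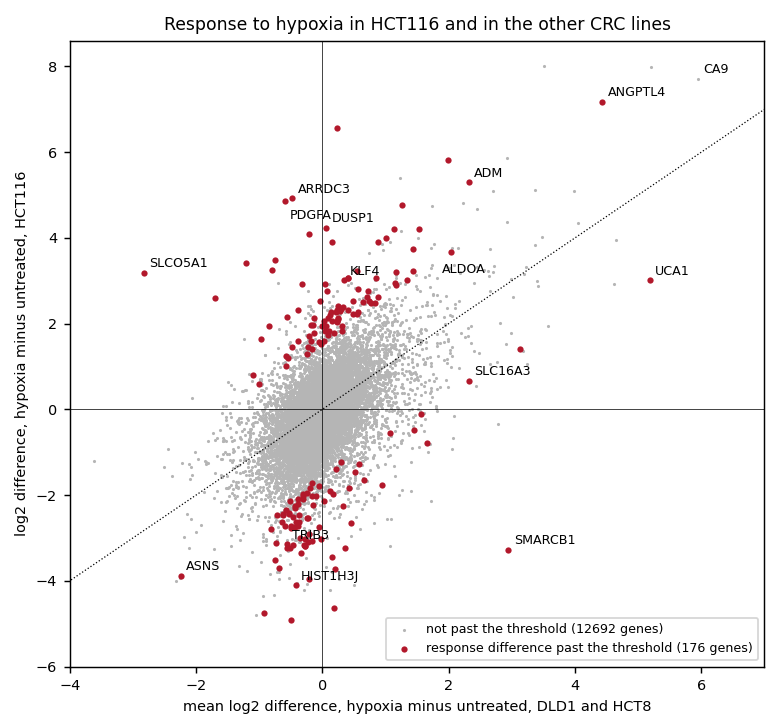
Each point is 1 of the 12868 genes measured in all 3 pairs, placed by the mean log2 difference between hypoxia and untreated in DLD1 and HCT8 (x axis) and by the difference in HCT116 (y axis), with the dotted line at equal values. The 176 red points passed 0.05 in the test of the response difference, and ADM, ANGPTL4, ARRDC3 and DUSP1 lie above the line while SMARCB1, ASNS and SLC16A3 lie below it.

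Genes known as HIF targets were higher in nearly the whole list. This list and those below were chosen with earlier results of these data known. The shares over all genes beside them are therefore a description and no test. Of the 27 listed targets measured in HCT116, 26 were at least 2-fold higher and 0 lower, where 12.1% of all genes were higher. The median log2 difference was 3.15 in HCT116, 1.56 in DLD1 and 2.50 in HCT8, beside -0.02 over all HCT116 genes, and the library labelled NCM460 lay 0.04 from untreated HCT116. In 19 of the 25 targets measured in all pairs HCT116 had the highest difference of the 3, beside 36.4% of all genes so measured. By the edgeR test, 2 of the 27 targets were called with a higher response in HCT116, where 0.508% of all genes tested were. CA12, a membrane carbonic anhydrase, was the target that stayed within 2-fold, at 3.60 and 6.23 CPM.

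The steepest of these differences belonged to genes that were nearly silent in untreated HCT116. ANKRD37, an ankyrin repeat protein, stood at 0.930 CPM untreated and 242 CPM under hypoxia, a 260-fold higher level. It stood at 3.44 and 8.84 CPM in DLD1 and 0.939 and 47.6 CPM in HCT8, and its response difference did not pass (log2 4.64 ± 1.36 (SE)). CA9, the carbonic anhydrase that acidifies the space outside hypoxic cells, had 6 counts untreated and 1039 under hypoxia, a 209-fold higher level whose 95% counting interval ran from 6.58 to 9.16 on the log2 scale. Such intervals are exact binomial ones and cover counting error only. ANGPTL4, a secreted inhibitor of lipoprotein lipase, stood at 3.43 and 498 CPM in HCT116, at 1.03 and 16.5 CPM in DLD1 and at 3.09 and 89.7 CPM in HCT8. Its untreated levels were all low and the hypoxia HCT116 library was the highest of the 6, and its response was larger in HCT116 (log2 difference of responses 2.69 ± 0.39 (SE), edgeR quasi-likelihood test, Benjamini-Hochberg adjusted p = 0.0277). The same test gave 3.0 ± 0.33 (SE) and an adjusted p of 0.00993 for ADM, and it did not pass for ALDOA (1.25 ± 0.40 (SE), adjusted p = 0.176).

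DDIT4, an inhibitor of the mTORC1 kinase, differed widely between the lines. It went from 247 to 3256 CPM in HCT116, a 13.2-fold higher level, from 374 to 338 CPM in DLD1 and from 161 to 669 CPM in HCT8. The DLD1 libraries thus hardly differed, although the test of the response difference did not pass (log2 2.77 ± 0.71 (SE), adjusted p = 0.105). VEGFA, which encodes the main vessel growth factor, went from 84.7 to 307 CPM in HCT116 and from 51.4 to 185 CPM in HCT8, and stood at 116 and 135 CPM in DLD1. NDRG1, a stress-response protein of epithelial cells, stood at 152 and 5223 CPM in HCT116, but the library labelled NCM460 already held 622 CPM of it. Among the sensors, the mRNA of EGLN3, a prolyl hydroxylase that is itself a HIF target, was 16.4-fold higher in HCT116, and that of EGLN1 4.94-fold higher. HIF1A, the oxygen-regulated α subunit that is controlled mainly as a protein, stood at 160.3 and 134 CPM. EPAS1, the related HIF-2α, went from 112 to 315 CPM in HCT116, a log2 difference of 1.48 beside 0.50 in DLD1 and 0.74 in HCT8.

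The glycolytic genes followed, with 15 of 21 at least 2-fold higher in HCT116 and 1 lower (12.1% and 13.6% over all genes). Their median log2 difference was 1.91 in HCT116, 1.07 in DLD1 and 1.73 in HCT8. SLC2A3, the glucose transporter GLUT3, went from 10.7 to 620.3 CPM in HCT116, a 58.1-fold higher level, and from 77.1 to 246 CPM in DLD1. ALDOC, another aldolase, was 20.3-fold higher, and GPI, which converts glucose-6-phosphate, went from 502 to 4243 CPM. The response difference of ALDOC was small and did not pass (log2 0.38 ± 0.36 (SE)). GAPDH, often used as a reference gene, went from 3178 to 15142 CPM, and LDHA, which makes lactate, from 796 to 6172 CPM. LDHB, the lactate dehydrogenase subunit that is not regarded as a HIF target, stood at 814 and 854 CPM, and PFKM, the muscle-type phosphofructokinase, at 204 and 185 CPM. SLC16A1, a lactate transporter, was the lower one, at 3.93 and 1.19 CPM. SLC16A3, the lactate exporter MCT4, was already at 219.8 CPM in untreated HCT116 and at 350.3 CPM under hypoxia, whereas it went from 29.8 to 148 CPM in DLD1 and from 51.6 to 260.0 CPM in HCT8. Its response was smaller in HCT116 by the edgeR test (log2 -1.65 ± 0.28 (SE), adjusted p = 0.0413).

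**Figure D3:**
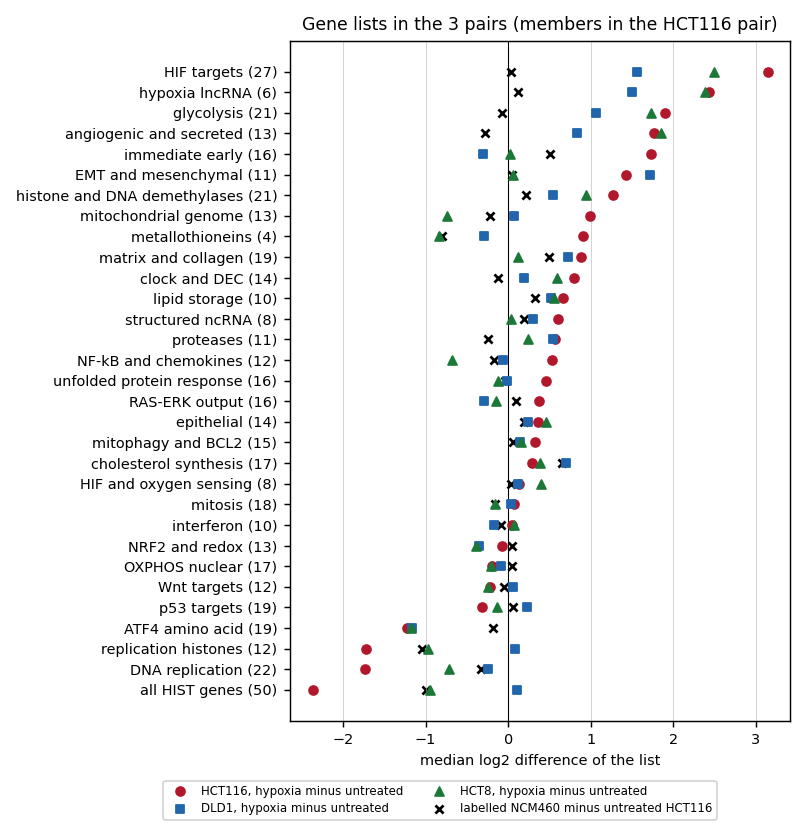
Median log2 difference between hypoxia and untreated over the members of each gene list in HCT116 (red circles), DLD1 (blue squares) and HCT8 (green triangles), and between the library labelled NCM460 and untreated HCT116 (crosses), with the number of members in the HCT116 pair in parentheses. HIF targets sit farthest to the right, at 3.15 in HCT116, and DNA replication (-1.73) and the HIST genes (-2.37) farthest to the left in HCT116.

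Growth factors and other secreted proteins of the vessel-forming program were mixed. Of 13 measured, 8 were at least 2-fold higher and 1 lower in HCT116 (12.1% and 13.6% over all genes). The median log2 differences were 1.76 in HCT116, 0.84 in DLD1 and 1.85 in HCT8. PDGFA, a ligand that draws in mesenchymal cells, went from 20.9 to 608 CPM in HCT116, a 29.0-fold higher level. In DLD1 it stood at 2.68 and 1.02 CPM and in HCT8 at 4.70 and 5.36 CPM, so that the hypoxia HCT116 library lay far above the other CRC libraries. The response difference was 5.35 ± 0.53 (SE) on the log2 scale (edgeR quasi-likelihood test, Benjamini-Hochberg adjusted p = 0.00734). IGFBP3, which binds insulin-like growth factors, went from 3.89 to 109 CPM in HCT116, from 3.06 to 5.47 CPM in DLD1 and from 1.12 to 13.8 CPM in HCT8. STC2, a secreted glycoprotein hormone, went from 116 to 395 CPM in HCT116 and had no more than 11 counts in any DLD1 or HCT8 library. FGF2, a basic fibroblast growth factor, was lower at 8.89 and 3.91 CPM.

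CXCR4, the receptor for the chemokine CXCL12, was expressed under hypoxia in HCT116 and hardly in the other libraries given here. It had 18 counts in the untreated and 1681 in the hypoxia HCT116 library, 113-fold more after scaling, and 0 and 3 counts in the DLD1 pair, 6 and 0 in the HCT8 pair and 2 in the library labelled NCM460. The response difference did not pass (log2 7.59 ± 1.65 (SE), adjusted p = 0.0727). CXCL8, the chemokine interleukin-8, went from 1.18 to 12.6 CPM in HCT116, from 2.24 to 1.91 CPM in DLD1 and from 1.96 to 0.430 CPM in HCT8. It was higher under hypoxia only in HCT116, and the response difference passed (log2 4.54 ± 0.85 (SE), adjusted p = 0.0479). Of the 12 measured genes of the NF-κB and chemokine list, 4 were at least 2-fold higher and 1 lower in HCT116, beside 12.1% and 13.6% of all genes.

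Genes with a large called response difference on the higher side included ARRDC3, an arrestin-domain protein that sorts membrane receptors. It went from 27.9 to 846 CPM in HCT116, a 30.3-fold higher level, and stood at 14.3 and 10.8 CPM in DLD1, 19.2 and 13.1 CPM in HCT8 and 37.3 CPM in the library labelled NCM460. The hypoxia HCT116 library lay far above the others given, with a response difference of 5.40 ± 0.31 (SE) on the log2 scale (edgeR quasi-likelihood test, Benjamini-Hochberg adjusted p = 0.000369). LUCAT1, a long noncoding RNA, was 19.5-fold higher, with 55 and 888 counts, where DLD1 had 51 and 31 and HCT8 45 and 32. TLR9, a sensor of unmethylated DNA, had 3 and 220 counts, a log2 ratio with a counting interval from 4.90 to 8.76, and DHH, a hedgehog ligand, had 6 and 294. Both were also more frequent in the library labelled NCM460 than in untreated HCT116, with 52 and 23 counts.

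For some of these genes the untreated HCT116 library was the unusual one. TGFBI, a matrix protein induced by TGF-β, had 2 counts in untreated HCT116, 233 under hypoxia and 130 in the library labelled NCM460, while DLD1 held 9060 and 11694 counts and HCT8 947 and 960. SLCO5A1, an organic anion transporter family member, had 17 and 128 counts in the HCT116 pair but 292 in the library labelled NCM460, so that its direction turned when that library was set in place of untreated HCT116 (log2 -1.01). CCL26, the chemokine eotaxin-3, had 0 counts in untreated HCT116 and 59 under hypoxia, at least 23.8-fold more against the floor of 3 counts per library. It had 5 counts in the library labelled NCM460.

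Genes that were at least 2-fold higher in HCT116 and within 0.5 log2 in the other lines numbered 290 among those with at least 10 CPM in the higher HCT116 library. The 12 with the largest differences were DUSP1, IL1RAP, FOSL2, TNFRSF10D, KLF4, LOC105373428, AVPI1, NR4A1, WDR66, FOSB, CD68 and FAM63B. Since they were chosen on the gap between the lines, the calls among them are not independent of that choice. DUSP1, a phosphatase that switches off MAP kinases, went from 11.9 to 224 CPM in HCT116, an 18.8-fold higher level, and stood at 9.69 and 10.9 CPM in DLD1 and 8.37 and 8.11 CPM in HCT8. IL1RAP, a subunit of the interleukin-1 receptor, went from 5.13 to 77.0 CPM in HCT116, with 5.87 and 6.44 CPM in DLD1 and 9.96 and 11.2 CPM in HCT8. TNFRSF10D, a decoy receptor for the death ligand TRAIL, went from 80.1 to 667 CPM in HCT116, with 38.0 and 48.4 CPM in DLD1. In each of these the hypoxia HCT116 library lay alone above the others given. Of the 348 genes chosen by this rule at any CPM, 44 passed the response test, where 0.508% of all genes tested were called higher.

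**Figure D4:**
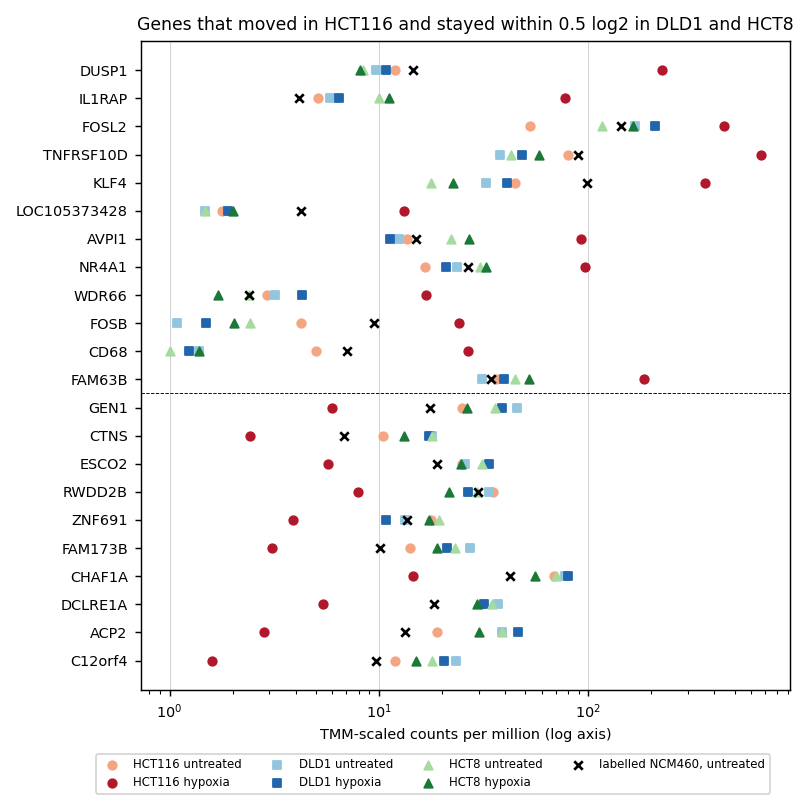
TMM-scaled CPM (log axis) in 7 libraries for the 12 higher (upper part) and 10 of the 12 lower (lower part) genes with the largest HCT116 differences among those that stayed within 0.5 log2 in DLD1 and HCT8, with each symbol 1 library. For DUSP1 the hypoxia HCT116 library sits at 224 CPM and the others between 8.11 and 14.6 CPM, and for CHAF1A it sits at 14.5 CPM with the others at 42.1 CPM or above.

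FOSL2, KLF4, NR4A1 and FOSB in that list are transcription factors of the immediate early kind, which cells switch on within minutes of growth factors or stress without making new protein. Of the 16 listed immediate early genes, 13 were at least 2-fold higher in HCT116 under hypoxia (12.1% over all genes) and 0 lower. The other 3, MYC, IER2 and FOSL1, had positive log2 differences, although that of IER2 (0.25) was smaller than the shift that scaling by total counts gives. Their median log2 difference was 1.74 in HCT116, -0.30 in DLD1 and 0.02 in HCT8. HCT116 had the highest difference in 15 of the 15 measured in all pairs, beside 36.4% of all genes so measured. FOSL2, an AP-1 subunit, went from 52.8 to 445 CPM in HCT116, from 168 to 209 CPM in DLD1 and from 116 to 164 CPM in HCT8. KLF4, a zinc-finger factor of differentiating gut epithelium, went from 44.6 to 360.1 CPM in HCT116 and stood at 32.4 and 41.1 CPM in DLD1 and 17.7 and 22.6 CPM in HCT8. EGR3, a factor downstream of ERK, went from 1.59 to 9.63 CPM in HCT116 and in the other direction in DLD1, from 2.34 to 0.660 CPM, and in HCT8, from 3.94 to 1.31 CPM.

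The response differed by the edgeR test for 4 of these 16 genes, where 0.508% of all genes tested were called higher, with adjusted p-values of 0.00993 for FOSL2 and KLF4, 0.0180 for NR4A1 and 0.0284 for EGR3. FOSL2, KLF4 and NR4A1 had also been chosen on the gap between the lines, so their calls are not independent of it. FOS, the namesake AP-1 subunit, went from 12.7 to 42.6 CPM in HCT116 and did not pass (adjusted p = 0.151). MYC and IER2 were the least different, at 419.5 and 570.1 CPM and at 152 and 181 CPM. The library labelled NCM460 also lay above untreated HCT116 for this list, with a median log2 difference of 0.51, and for FOSL2 it held 144 CPM and for KLF4 98.3 CPM. With this library in place of untreated HCT116 the median of the list was 1.11.

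Readouts of the RAS-ERK pathway, which feeds the immediate early genes, mostly stayed within 2-fold in HCT116. Of 16 genes, 4 were at least 2-fold higher and 0 lower in HCT116 (12.1% and 13.6% over all genes). The medians were 0.38 in HCT116, -0.29 in DLD1 and -0.15 in HCT8. HCT116 had the highest difference of the 3 pairs in 13 of the 16, beside 36.4% of all genes measured in all pairs. SPRY1, an inhibitor of receptor tyrosine kinase signaling, went from 8.33 to 58.2 CPM in HCT116 and passed the response test (log2 2.24 ± 0.35 (SE), adjusted p = 0.0331). AREG, an EGF-receptor ligand, stood at 180.0 and 362 CPM in HCT116 and passed as well (adjusted p = 0.0462), but the library labelled NCM460 held 414 CPM. DUSP6, a phosphatase that is a standard readout of ERK activity, stood at 379.6 and 296 CPM. AVPI1, a vasopressin-induced protein linked to MAP kinase signaling, went from 13.6 to 91.9 CPM (adjusted p = 0.0235).

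On the lower side, the genes that moved in HCT116 and hardly elsewhere included genes of DNA repair and chromatin assembly. Among the 372 with at least 10 CPM, the 12 with the largest differences included C12orf4, ACP2, DCLRE1A, CHAF1A, FAM173B, ZNF691, RWDD2B, ESCO2, CTNS and GEN1. CHAF1A, a subunit of the factor that loads histones on new DNA, went from 68.5 to 14.5 CPM in HCT116, 4.71-fold lower, and stood at 77.4 and 79.7 CPM in DLD1 and 70.2 and 55.4 CPM in HCT8. The library labelled NCM460 held 42.1 CPM of it, between the values of the HCT116 pair. DCLRE1A, a nuclease that repairs crosslinks between DNA strands, went from 31.2 to 5.39 CPM in HCT116, 5.80-fold lower, with 37.0 and 31.6 CPM in DLD1 and 34.6 and 29.6 CPM in HCT8. ACP2, a lysosomal acid phosphatase, and CTNS, the lysosomal cystine transporter, were 6.65-fold and 4.27-fold lower. Of the 605 genes chosen by this rule at any CPM, 24 passed the response test, where 0.423% of all genes tested were called lower. DCLRE1A and CHAF1A were among them (edgeR test, adjusted p = 0.0277 and 0.0284). All 605 were chosen on the gap between the lines, so these calls are not independent of that choice.

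DNA replication genes were lower in HCT116 as a list, which was chosen with earlier results of these data known. Of 22 measured, 19 were at least 2-fold lower (13.6% over all genes) and 0 were higher. HCT116 had the lowest difference of the 3 pairs in 20, beside 42.1% of all genes measured in all pairs. The median log2 difference was -1.73 in HCT116, -0.25 in DLD1 and -0.71 in HCT8, and the library labelled NCM460 lay at -0.32 from untreated HCT116. MCM5, part of the ring helicase that opens DNA at origins, went from 139 to 25.1 CPM in HCT116, 5.54-fold lower, and stood at 159 and 158 CPM in DLD1 and 132 and 79.3 CPM in HCT8. PCNA, the sliding clamp of the replication fork, went from 264 to 47.5 CPM in HCT116 and from 441 to 364 CPM in DLD1. MCM10, which joins the helicase to polymerase α, went from 54.6 to 7.85 CPM. In the other CRC libraries MCM5 was at 79.3 CPM or higher and PCNA at 158 CPM or higher. The response test passed for 6 of the 22, where 0.423% of all genes tested were called lower, namely MCM2, MCM4, MCM5, MCM10, GINS2 and PCNA, with adjusted p-values from 0.0321 for GINS2 to 0.0480 for PCNA.

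The 3 genes of the list within 2-fold were RRM1, a subunit of ribonucleotide reductase (log2 difference -0.80), CDT1 and ORC1. ORC1, the largest subunit of the origin recognition complex, stood at 36.4 and 31.1 CPM in HCT116, and CDT1, which loads the helicase, at 147 and 112 CPM. CCNE2, a cyclin that drives entry into S phase, was among the 12 genes with the lowest log2 difference in HCT116 of those with 10 CPM or more in the higher library. It went from 11.9 to 0.913 CPM or 13-fold lower, against 23.6 and 17.5 CPM in DLD1 and 18.3 and 9.52 CPM in HCT8 (response difference -3.01 ± 0.45 (SE), adjusted p = 0.0284). E2F1, the transcription factor of S-phase genes, was chosen after its values were seen and went from 43.6 to 8.01 CPM in HCT116, from 53.8 to 41.8 CPM in DLD1 and from 52.7 to 32.9 CPM in HCT8.

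Mitotic genes stood in contrast. Of 18 measured, 0 were at least 2-fold higher and 0 lower in HCT116 (12.1% and 13.6% over all genes). The median log2 difference was 0.07 in HCT116, 0.04 in DLD1 and -0.16 in HCT8. MKI67, a marker of cycling cells, stood at 558 and 688 CPM in HCT116, TOP2A, the topoisomerase of dividing cells, at 194 and 252 CPM, and CCNB1, the mitotic cyclin B1, at 197 and 129 CPM. The log2 differences of the replication genes and the mitotic genes in HCT116 overlapped only at ORC1 (-0.23) and CDT1 (-0.39), since the lowest mitotic gene was CCNB1 at -0.61. With total counts alone the mitotic median became -0.28 and the replication median -2.09, so that the sign of the first, not of the second, depended on the scaling. Targets of p53, which arrests damaged cells, gave 1 higher and 1 lower of 19 (12.1% and 13.6% over all genes). CDKN1A, the arrest gene p21, had a log2 difference of -0.35.

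Histone genes of the replication-dependent clusters were lower as well. Of the 12 listed and measured, 11 were at least 2-fold lower in HCT116 (13.6% over all genes), with median log2 differences of -1.72 in HCT116, 0.09 in DLD1 and -0.98 in HCT8. The wider set of all genes with a HIST symbol was formed after these values were seen: 47 of 50 were at least 2-fold lower and 1, the pseudogene HIST1H1PS1, was higher. The median of this wider set was -2.37 in HCT116, 0.11 in DLD1 and -0.95 in HCT8. The library labelled NCM460 lay at -1.0 from untreated HCT116, and with it in the place of that library the HCT116 median was -1.24. HIST1H3J, a histone H3 gene, went from 86.2 to 5.04 CPM in HCT116, 17.1-fold lower, with 173 and 187 CPM in DLD1, 148 and 76.0 CPM in HCT8 and 27.3 CPM in the library labelled NCM460. Its response difference passed the edgeR test (log2 -3.67 ± 0.44 (SE), adjusted p = 0.0149). In all, 14 of the 50 HIST genes were called with a lower response in HCT116, where 0.423% of all genes tested were called lower. HIST genes were lower in HCT8 too, with 27 of 60 at least 2-fold lower (6.4% over all genes of that pair). In DLD1 this held for 0 of 61 (2.03%). HIST1H2BD, which also yields polyadenylated transcripts, was within 2-fold at 188 and 106 CPM. These genes are near copies of each other, so reads may be shared between them.

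**Figure D5:**
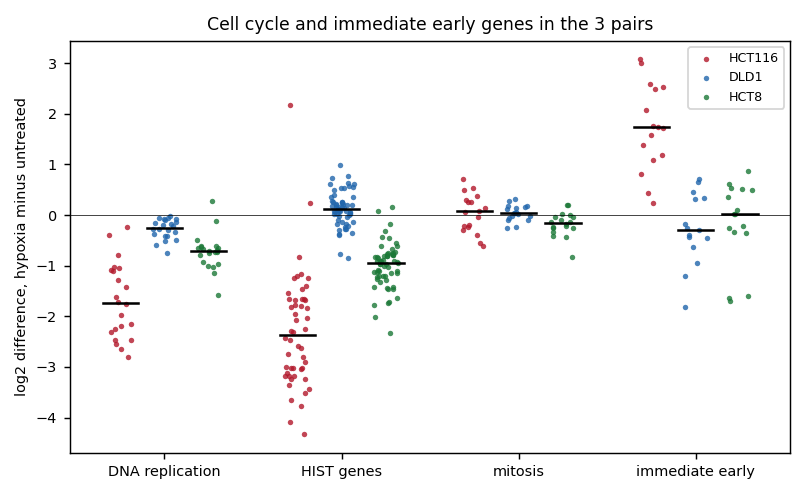
Log2 difference between hypoxia and untreated for each gene (points) of the DNA replication, HIST, mitosis and immediate early lists in HCT116 (red), DLD1 (blue) and HCT8 (green), with the median of each list as a black line. The HCT116 medians are -1.73, -2.37, 0.07 and 1.74 in that order, and HCT116 lies below both other lines for the first 2 lists and above them for the last.

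Genes of amino acid supply that answer to the factor ATF4 were lower in all 3 lines. Of 19 measured in HCT116, 11 were at least 2-fold lower and 2 higher (13.6% and 12.1% over all genes). The medians were close, at -1.22 in HCT116, -1.16 in DLD1 and -1.18 in HCT8. What set HCT116 apart were single genes. TRIB3, a pseudokinase induced by ATF4, went from 188 to 21.1 CPM in HCT116, 8.88-fold lower, and from 362 to 241 CPM in DLD1 and 141 to 96.9 CPM in HCT8 (response difference -2.58 ± 0.29 (SE), adjusted p = 0.0106 by the edgeR test). SLC1A4, a neutral amino acid transporter, was 9.63-fold lower in HCT116, where the other log2 differences were -1.51 and -1.93 (adjusted p = 0.0636). ATF4 itself was close to 2-fold lower in each line, with log2 differences of -0.98, -0.96 and -1.02. Among chaperones of the unfolded protein response 3 of 16 were higher and 1 lower in HCT116 (12.1% and 13.6% over all genes). HSPA5, the ER chaperone BiP, stood at 1123 and 2392 CPM in HCT116 and 846 and 789 CPM in DLD1.

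The mitochondrial genome gave a split picture. Of its 13 protein-coding genes, 6 were at least 2-fold higher and 1 lower in HCT116 (12.1% and 13.6% over all genes). The median log2 difference was 0.99 in HCT116, beside 0.07 in DLD1 and -0.74 in HCT8. ND4, a subunit of respiratory complex I, went from 3393 to 10148 CPM in HCT116 and stood at 2798 and 2945 CPM in DLD1 and 2891 and 2566 CPM in HCT8 (adjusted p = 0.0445). ND6, the only one of these genes encoded on the other strand, went from 1323 to 315 CPM in HCT116, 4.20-fold lower, and from 366 to 40.0 CPM in HCT8. ND1 and ND2, the first genes behind the ribosomal RNAs, had log2 differences of -0.68 and -0.84. Subunits of the same respiratory chain encoded in the nucleus gave 0 higher and 1 lower of 17 by the same measure, with a median of -0.19. The median of the mitochondrial list was 0.47 after removal of the trend with abundance, and nuclear copies of these genes may share their reads.

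Oxygen-dependent demethylases and hydroxylases, which use the same cofactors as the oxygen sensors, were mostly higher. Of 21, 13 were at least 2-fold higher and 0 lower in HCT116 (12.1% and 13.6% over all genes). The median was 1.28 in HCT116, beside 0.54 in DLD1 and 0.94 in HCT8. P4HA1, the collagen prolyl hydroxylase, went from 39.6 to 536 CPM in HCT116, and KDM3A, a histone H3 lysine 9 demethylase, from 55.3 to 566 CPM. JMJD6, PLOD1 and the TET enzymes TET1 and TET2 were higher by log2 differences between 1.22 and 1.75. Clock genes, which set daily rhythms, gave 6 of 14 at least 2-fold higher in HCT116 (12.1% over all genes), 3 of 14 in DLD1 (5.86%) and 5 of 14 in HCT8 (9.2%). PER1 went from 112 to 753 CPM, NR1D1 from 89.2 to 447 CPM and BHLHE40, a repressor known as DEC1, from 76.8 to 1093 CPM in HCT116. The response difference of BHLHE40 did not pass (log2 0.47 ± 0.54 (SE)).

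Matrix genes were higher in HCT116 in part with DLD1 and in part alone. Of 19 measured, 9 were at least 2-fold higher and 0 lower in HCT116 (12.1% and 13.6% over all genes). The medians were 0.88 in HCT116, 0.73 in DLD1 and 0.12 in HCT8. LOXL2, which crosslinks collagen, went from 42.4 to 681 CPM in HCT116, 16.1-fold higher, while DLD1 and HCT8 stayed at no more than 61 counts (adjusted p = 0.0127). LAMA3, a laminin chain of epithelial basement membrane, went from 6.28 to 28.9 CPM in HCT116 and stood at 75.8 and 79.0 CPM in DLD1 and 25.9 and 29.4 CPM in HCT8 (adjusted p = 0.0284). Fibronectin (FN1) went from 14.4 to 120.2 CPM in HCT116 and from 5.32 to 55.6 CPM in DLD1, but the library labelled NCM460 held 53.5 CPM. The 7 fibroblast markers summed to 16.8 CPM in untreated HCT116, 68.5 CPM under hypoxia and 44.1 CPM in the library labelled NCM460, and to 4.37 and 27.3 CPM in the DLD1 pair and 12.4 and 21.7 CPM in the HCT8 pair. COL1A2, a collagen of mesenchymal cells, was in the same order, at 0.949, 17.0 and 8.16 CPM, and the part of other cells in these values was not tested. MT1X, a metal-binding metallothionein, went from 16.9 to 84.4 CPM in HCT116 and stood at 27.3 and 22.8 CPM in DLD1 (adjusted p = 0.0149).

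Further lists are given by their counts in HCT116, where 12.1% of all genes were at least 2-fold higher and 13.6% lower. Cholesterol synthesis gave 2 higher and 0 lower of 17, interferon genes 0 higher and 2 lower of 10, and NRF2 and redox genes 1 higher and 1 lower of 13. Epithelial genes gave 3 higher and 0 lower of 14, where CDH1 (E-cadherin) stood at 128 and 285 CPM and KRT19 at 865 and 2692 CPM. Targets of Wnt gave 1 higher and 3 lower of 12. SP5, a direct Wnt target, stood at 2.75 and 0.234 CPM in HCT116. PDX1, a homeobox factor of pancreas and duodenum, went from 159 to 10 counts in HCT116, where DLD1 had 615 and 792 counts and HCT8 1300 and 1244 (response difference -3.90 ± 0.51 (SE), adjusted p = 0.0235). BCL2, an inhibitor of apoptosis, was lower in each line, by 2.89-fold in HCT116. BNIP3L, the sister of BNIP3, was 10.1-fold higher in HCT116, and its response difference did not pass (log2 0.61 ± 0.39 (SE)). Small summary values such as the medians of the cholesterol (0.29) and mitophagy (0.33) lists changed sign with total counts alone.

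Only 2 higher and 5 lower genes moved by at least 2-fold in the opposite direction in both other lines, and 2 of these had at least 10 CPM. SMARCB1, a core subunit of the SWI/SNF chromatin remodeler, stood at 21.1 CPM in untreated HCT116 and 2.18 CPM under hypoxia, 9.70-fold lower. In DLD1 it went from 2.38 to 19.4 CPM and in HCT8 from 2.11 to 15.3 CPM, and the library labelled NCM460 held 3.10 CPM. The untreated HCT116 library and the hypoxia libraries of the other lines were therefore the high ones, and the response difference was -6.22 ± 0.47 (SE) on the log2 scale (edgeR quasi-likelihood test, Benjamini-Hochberg adjusted p = 0.00124). THEMIS2, a signaling adaptor of immune cells, went from 10.8 to 4.64 CPM in HCT116, from 0.475 to 1.44 CPM in DLD1 and from 6.64 to 15.5 CPM in HCT8, and did not pass (adjusted p = 0.0538). FAM86JP, a pseudogene, was 26.8-fold lower in HCT116, at 10.7 and 0.398 CPM, and its relative FAM86C1 9.97-fold lower, at 12.8 and 1.29 CPM, and reads may be shared between the copies. KRT8P12, a keratin pseudogene, had 109 counts and 1 count, and the noncoding RNA LINC01126 had 90 and 2.

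HCT116 also expressed 286 genes that had no more than 3 counts in each of the 4 DLD1 and HCT8 libraries, 55 of them at 10 CPM or more. Of these 55, 11 were at least 2-fold higher and 2 lower, where 12.1% of all genes were higher and 13.6% lower. COL4A3, a collagen of specialised basement membranes, had 407 counts untreated and 1337 under hypoxia, 3.97-fold more after scaling, and RNF165, a ubiquitin ligase, 464 and 1404. UPK1A-AS1, named as antisense to the uroplakin gene UPK1A, had 54 and 443 counts and IL1RAPL1, a synaptic receptor protein, 227 and 760. KCNG1, a modifier subunit of potassium channels, went the other way, from 3815 to 1167 counts, as did GALNT14, which starts O-glycans, from 719 to 284. IL1RAPL1 and GALNT14 also had 525 and 1272 counts in the library labelled NCM460. Since the strand of counting is not given in the sources used here, UPK1A-AS1 and HIF1A-AS2 (0.0969 and 24.6 CPM in HCT116) cannot be told from the genes they overlap. Noncoding RNAs known in hypoxia gave 5 of 6 higher (12.1% over all genes), with UCA1 at 98.1 and 790.4 CPM in HCT116. Its response was smaller there than in the other lines, which had log2 differences of 4.66 and 5.71 beside 3.01 (adjusted p = 0.0482 by the edgeR test).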

How the data were processed

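Total RNA of the 8 libraries was sequenced after removal of ribosomal RNA. The authors deposited 1 table of raw counts per gene, without normalization. The labels name GRCh38 and HISAT2 2.0.4, the methods of the paper name GRCh37.p13, and the counter, the strand setting and the treatment of reads with several matches are not given in the sources used here. All sample columns were used (0 left aside). Gene copies and overlapping genes can therefore share reads.

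Counts were scaled with TMM (edgeR 4.0.16 in R 4.3.3). The log2 difference of a pair is that of scaled CPM with each count raised to a floor of 3, over genes with at least 50 counts in either library. Its interval is the exact (Clopper-Pearson) 95% one and covers counting error only. The response difference was tested with edgeR's quasi-likelihood test over the 6 CRC libraries, on genes reaching 10 counts in 2 or more libraries, with line, hypoxia and hypoxia in HCT116 as terms, Benjamini-Hochberg adjustment and a threshold of 0.05. The coefficient of variation was 0.211, with 1 residual and 8.47 prior degrees of freedom. The p-values measure only the gap between the DLD1 and HCT8 responses in these libraries, pooled over genes. Same-numbered libraries are 1 cell line by their labels, so the numbers pair the samples: deviations from the group means correlated at 0.844, 0.861 and 0.827 within lines and at -0.615 to -0.062 between them.

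Alternatives were DESeq2 1.42.0, limma-trend (limma 3.58.1), other scalings, filters and folds, no block, single libraries left out, the library labelled NCM460 in place of untreated HCT116 and, chosen after seeing the data, offsets that remove a trend with abundance. Named genes are the markers, up to 12 genes per direction with the largest HCT116 difference and as many with no difference in the other lines (10 CPM or more), up to 6 per direction opposite in or absent from the other lines, up to 10 per direction called in the test, and the members of the gene lists. Of the genes this rule takes, 2 are not reported here. Members and lists were chosen with earlier results of these data known. Promoter sequences are from RefSeq.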

Additional observations from a re-analysis of the deposited data

Results flagged for a closer look

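By edgeR's quasi-likelihood test of the interaction, a response difference between HCT116 and the other CRC lines was called for 196 of 21045 genes. Of these, 107 were higher in HCT116 (0.508%) and 89 lower (0.423%). The only measure of error is the gap between the DLD1 and HCT8 responses, and limma-trend called 0. Genes below that were named because they moved in HCT116 and hardly elsewhere were chosen on that gap between the lines. Their calls are not independent of that choice. The values in parentheses are the log2 differences between the HCT116 response and the mean of the DLD1 and HCT8 responses. Among the named genes the HCT116 response was higher for the HIF targets ADM (3.0) and ANGPTL4 (2.69), for the regulators of growth and signaling DUSP1 (4.17), FOSL2 (2.67), KLF4 (2.67), NR4A1 (2.58), AVPI1 (2.68) and ARRDC3 (5.40), for the receptors IL1RAP (3.75), TNFRSF10D (2.66) and TLR9 (5.98), for the secreted proteins PDGFA (5.35), DHH (6.33), TGFBI (6.81), CXCL8 (4.54) and CCL26 (8.23), for SLCO5A1 (5.98) and FAM63B (2.06) and for the noncoding or unnamed transcripts LUCAT1 (4.84) and LOC105377604 (10.05).

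It was lower for genes of DNA replication and repair, CCNE2 (-3.01), CHAF1A (-2.09), DCLRE1A (-2.31) and ESCO2 (-2.16), for the histone genes HIST1H3J (-3.67), HIST1H3H (-2.77), HIST1H2BM (-3.60) and HIST1H2BO (-3.02), for SMARCB1 (-6.22), ASNS (-1.64), ACP2 (-2.68), C12orf4 (-2.69), PDX1 (-3.90) and CSPG4 (-3.33), and for the pseudogenes and transcripts of unknown function FAM86JP (-3.82), KRT8P12 (-5.86), LINC01126 (-5.35), LOC100288842 (-3.73) and LOC107985216 (-3.57). CSPG4, a proteoglycan, had 3513 and 2454 counts in the HCT116 pair and 21 and 194 in the HCT8 pair, so its value rests on the HCT8 libraries. THEMIS2 stood out since its log2 difference was -1.22 in HCT116 and positive in both other lines. It did not pass the test of the response difference. Genes near 0 counts in 1 library, among them CCL26, TGFBI, TLR9, LOC105377604 and KRT8P12, have fitted values that depend on the prior count and are no measure of a fold.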

How the results depend on the processing

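With total counts alone in place of TMM, 1138 genes were at least 2-fold higher and 3482 lower in HCT116, and 154 and 1235 moved there and under 0.5 in the other lines. With 10 counts as the minimum the first 2 counts were 3411 and 3341, with 200 counts 1155 genes were higher, and at 3-fold they were 865 and 762, with 82 and 168 confined to HCT116 by the rule. Allowing the other lines up to 1 gave 733 and 1310, and DLD1 as the only other line 664 and 1312. The other scalings, HCT8 as the only other line and the library labelled NCM460 kept these counts within 1.5 times, and a floor of 10 changed none. The number of genes with a called response difference was 493 with DESeq2, 316 with upper-quartile factors, 1177 without a filter, 73 with at least 50 counts in 2 libraries, 584 with trend offsets and 0 with limma-trend. It was 0 without the replicate block and between 0 and 0 with 1 library of DLD1 or HCT8 left out, where the block cannot be fitted. Of the 41 called genes that the naming rule takes, upper-quartile factors, no filter and trend offsets kept all 41, DESeq2 36 and the filter at 50 counts 25 of the 38 it tested. With the library labelled NCM460 in place of untreated HCT116, log2 differences changed sign for SLCO5A1 (-1.01), COL5A1 (-0.70), AREG (-0.19), CSF1 (0.70) and PLIN4 (-1.30), and the response difference of CSPG4 ran from -5.28 to 0.99 with 1 library left out, the latter without the hypoxia HCT8 library. The cause was not tested in any of these, other than the fewer or more genes and samples that a filter or a left-out library gives. Depth limits genes near 3 counts, such as TGFBI, TLR9 and CCL26 in untreated HCT116.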
